A study of Mus musculus with 6 samples.

Results

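The TNF superfamily ligands described here are 10 genes, *Tnf*, *Lta*, *Ltb*, *Cd40lg*, *Cd70*, *Tnfsf4*, *Tnfsf8*, *Tnfsf9*, *Tnfsf11* and *Tnfsf14*, chosen by symbol. All 10 were found among the 35602 genes of the count table and among the 34714 genes listed for a further pair of libraries. The samples were CD4+ T cells of mouse spleen, stimulated through CD3 and CD28, that had received either the MAPK13 inhibitor MAPK13-IN-1 or its solvent DMSO, with 3 libraries in each group. MAPK13 is a stress-activated kinase of the p38 family, and the comparison asks what the inhibitor does to the transcripts of the stimulated cells.

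The libraries came from 2 preparations. Replicates 2 and 3 of each group, from cells of genotype WT, were prepared with poly-T beads and are given as counts, which total 26874805 and 28487403 for DMSO and 33854760 and 32617702 for MAPK13-IN-1. A further library of each group, which the sample titles do not number, whose file names carry a 4 and which is called replicate 1 here by accession order only, was prepared with a stranded kit and has 1 normalized value per gene, read here as FPKM (fragments per kilobase, scaled to library size). The labels of that pair give no genotype or dose, and its depth is unknown; the study's own description of its RNA-seq states the inhibitor dose given next without singling out libraries. For replicates 2 and 3 the labels place 17.1 µM inhibitor, or DMSO, in the medium after day 1 of stimulation, while the description of the series has the compound present over the 72 h of stimulation. Strain and age were not given in the labels. Nothing in them says that the libraries came from separate mice or cultures, so p-values measure only the spread between these libraries, which may be technical.

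Ligands of the TNF superfamily are made as trimers, most of them on the cell surface, and bind receptors of the matching superfamily on neighbouring cells. The receptors recruit TRAF adaptors and switch on NF-kB by a canonical route, or by a slower route through the kinase NIK. Activated CD4+ T cells use these ligands to license B cells and dendritic cells, to organise lymphoid tissue and to prolong each other's survival, and engagement of the T cell receptor is what induces most of them.

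The labelled cell type was checked against marker genes in the count libraries, in CPM (counts divided by the TMM-adjusted library size, times 1e6). *Cd4* stood at 275 and 276 CPM in the DMSO libraries and at 267 and 283 CPM in the MAPK13-IN-1 libraries. *Cd3e*, a chain of the T cell receptor complex, stood at 105 and 103 CPM with DMSO and at 34.9 and 45.8 CPM with the inhibitor. T cell transcripts were therefore present in every library, with *Cd3e* lower with the inhibitor and *Cd4* not called. Of 12 T cell markers 9 were lower with the inhibitor and 0 higher, beside 32.3% and 31.5% of all genes tested, and their summed level was 2489 and 2542 CPM with DMSO against 1559 and 1685 CPM with the inhibitor. *Cd5*, an inhibitory surface receptor and the marker with the highest mean CPM, gave 425 and 439 CPM with DMSO against 154 and 200 CPM with the inhibitor.

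B cell transcripts were present too, in libraries labelled as CD4+ T cells. Of the 12 B cell markers 10 were listed, none of them at 0, and 7 were higher and 2 lower with the inhibitor, beside the same 31.5% and 32.3%. *Pax5*, the transcription factor of B cell identity and the B cell marker with the highest mean CPM, gave 178 and 168 CPM with DMSO and 263 and 271 CPM with the inhibitor. The summed level of B cell markers was 1141 and 1119 CPM with DMSO and 1310 and 1333 CPM with the inhibitor. In the replicate 1 pair the same markers summed to 52.3 FPKM with DMSO against 36.5 FPKM with the inhibitor, beside 1692 and 1693 FPKM for the T cell markers. The B cell sum was thus higher with the inhibitor in the count libraries and lower in the pair; CPM is not scaled by length, so CPM and FPKM sums are not on a common scale.

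Markers of other cells were far lower in sum but also differed between the groups; the shares of all genes given above apply to these lists too. Erythroid markers summed to 10.5 and 10.1 CPM with DMSO and 90.8 and 66.1 CPM with the inhibitor, 5 of 7 tested being higher and 1 lower, and *Hbb-bs*, a globin chain, went from 1.98 and 1.73 CPM to 29.5 and 21.9 CPM. Macrophage and monocyte markers summed to 13.7 and 11.9 CPM against 42.2 and 35.3 CPM, 6 of 7 being higher. Among these 6 is a gene with 2 and 0 counts with DMSO and 14 and 12 with the inhibitor. It passed the filter on low counts only through the inhibitor libraries, which fixed the direction of its call. *Cd68*, a lysosomal protein, had the highest mean, at 10.5 and 9.30 CPM against 28.4 and 25.0 CPM. The erythroid sum and the macrophage and monocyte sum were higher in both inhibitor libraries than in either DMSO library. Dendritic cell markers summed to 44.9 and 45.5 CPM against 60.8 and 52.7 CPM, 4 of 5 being higher and 1 lower. Among these 4 is a gene with 0 and 4 counts with DMSO and 27 and 16 with the inhibitor. It too passed the filter only through the inhibitor libraries, which fixed the direction of its call. *Zbtb46*, a transcription factor, was at 15.3 and 15.1 CPM against 45.7 and 37.0 CPM. CD8 T and NK cell markers summed to 25.8 and 23.4 CPM against 12.4 and 15.0 CPM, 3 of 6 being lower and 1 higher, with *Cd8b1*, a chain of CD8, at 8.72 and 8.38 CPM against 4.73 and 6.55 CPM (adjusted p = 0.0115, a call lost with DESeq2 at 0.0535). In these libraries the sum was thus higher for dendritic cells and lower for CD8 T and NK cells, without overlap of the groups. The dendritic list was not uniform, since *Batf3*, a transcription factor, was its gene with the largest change and was lower, at 25.7 and 26.1 CPM with DMSO against 2.14 and 3.54 CPM with the inhibitor. In the pair the sums with DMSO and with the inhibitor were 8.12 and 16.9 FPKM for CD8 T and NK cell markers, the opposite direction, 29.9 and 50.5 FPKM for dendritic, 3.02 and 9.54 FPKM for macrophage and monocyte and 1.00 and 2.03 FPKM for erythroid markers. Neutrophil markers were near the detection limit. *Mpo* (myeloperoxidase), the only 1 of 8 tested, had 2 and 2 counts with DMSO and 17 and 16 counts with the inhibitor. *Mpo* passed the filter only through the inhibitor libraries, so a call could only be higher, and it was lost with DESeq2 (adjusted p = 0.0970). *S100a9* had 0 counts in all 4 libraries. *Camp*, *Retnlg*, *Ncr1*, *C1qa*, *C1qc*, *Clec9a* and *Siglech* had 0 counts in both DMSO libraries and 0 to 14 counts in the inhibitor libraries. *S100a8* and *Elane* had 0 counts in both inhibitor libraries and 0 to 3 counts with DMSO. The part of other cells in the ligand values below was not tested.

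With the inhibitor, 5 of the 10 ligands were lower in replicates 2 and 3 (*Lta*, *Ltb*, *Tnfsf8*, *Tnfsf11* and *Cd40lg*), beside 32.3% of the 16269 genes tested, and 3 were higher (*Tnfsf4*, *Tnfsf9* and *Cd70*), beside 31.5%. All 10 passed the filter on low counts. Calls rest on edgeR's quasi-likelihood test of 2 against 2 libraries, with an adjusted p under 0.05. The count of higher ligands lay near that of all genes, and that of lower ligands above it. Where a fitted fold of at least 2 was asked for as well, a rule added after seeing the data, 3 ligands were lower (*Lta*, *Tnfsf8* and *Tnfsf11*), beside 10.4% of genes, and 2 were higher (*Tnfsf4* and *Tnfsf9*), beside 13.0%. The median log2 fold change was -0.34 over the 10 ligands and 0.01 over all genes tested. In replicates 2 and 3 more of the ligands were thus called lower than higher, with *Tnf* and *Tnfsf14* not called. Whether these counts, out of only 10 genes, differ from the shares of all genes was not tested. In bulk RNA, fewer cells of a type and less RNA per cell cannot be told apart.

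**Figure D1:**
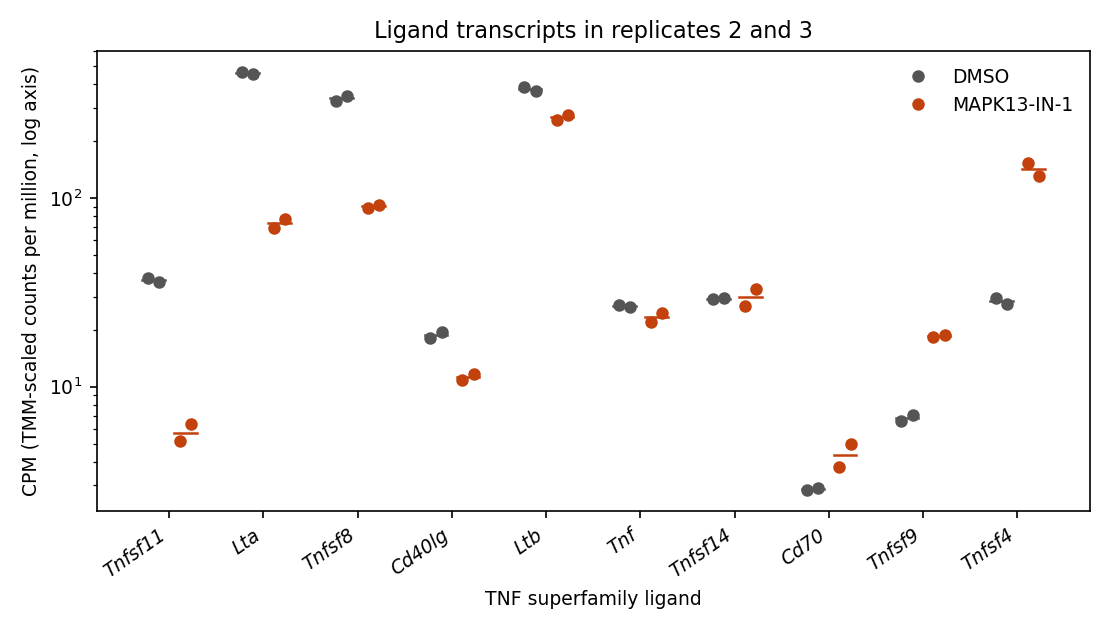
Level of the 10 ligand transcripts in DMSO (grey) and MAPK13-IN-1 (orange) libraries of replicates 2 and 3, in TMM-scaled CPM on a log axis. Each point is a library and each bar a group mean (n = 2); genes are ordered by fitted log2 fold change, and only the points of *Tnfsf14* overlap between the groups.

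The lymphotoxins come first. *Lta* encodes lymphotoxin alpha, which is secreted as a trimer that binds the TNF receptors and also joins lymphotoxin beta in a membrane-bound complex. Its level was 466 and 451 CPM in the DMSO libraries and 69.1 and 77.3 CPM in the MAPK13-IN-1 libraries. Both inhibitor libraries were far below both DMSO libraries, and the gap was many times the difference within either group. The mean went from 458 ± 10.9 to 73.2 ± 5.82 CPM (SD, n = 2), a log2 fold change of -2.65 (SE 0.067, 95% interval -2.79 to -2.50, adjusted p = 2.99e-09), or 6.26-fold lower. These values rest on 12024 and 12262 counts with DMSO and on 2454 and 2622 counts with the inhibitor.

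*Ltb* encodes lymphotoxin beta, which anchors lymphotoxin alpha to the membrane and directs the complex to the lymphotoxin beta receptor. It was measured at 385 and 366 CPM with DMSO and at 258 and 275 CPM with the inhibitor. The groups did not overlap, but the step was small beside that of *Lta*. Its mean was 375 ± 12.9 CPM against 267 ± 12.3 CPM (SD, n = 2), and its log2 fold change was -0.49 (SE 0.057, 95% interval -0.62 to -0.37, adjusted p = 2.99e-05). The partners of the membrane complex were thus both lower, *Lta* by 6.26-fold and *Ltb* by 1.41-fold.

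*Tnf*, the inflammatory cytokine after which the family is named, had 27.1 and 26.5 CPM with DMSO and 22.1 and 24.7 CPM with the inhibitor. Both inhibitor libraries lay below both DMSO libraries, by a margin smaller than the difference within the inhibitor group. The log2 fold change was -0.20 (SE 0.095, 95% interval -0.41 to 0.01) and was not called (adjusted p = 0.0939). The interval holds 0 and does not reach a fall of 2-fold. Without MAPK13-IN-1 replicate 3 the value was -0.29 and passed (adjusted p = 0.00839), and over the alternatives tried the adjusted p ran from 0.00839 to 0.525.

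*Tnfsf14* encodes LIGHT, a ligand of the herpesvirus entry mediator (the product of *Tnfrsf14*) and of the lymphotoxin beta receptor. Its DMSO libraries gave 29.1 and 29.3 CPM and its MAPK13-IN-1 libraries 26.8 and 32.9 CPM. The inhibitor libraries fell on either side of the DMSO pair, so the groups overlapped. The fitted log2 fold change was 0.03 (SE 0.11, 95% interval -0.20 to 0.27, adjusted p = 0.810), and without MAPK13-IN-1 replicate 3 its sign turned, at -0.13 (adjusted p = 0.226, range over alternatives 0.0914 to 0.948). No direction can be given for this gene in replicates 2 and 3.

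The next ligands are those by which helper T cells address B cells, myeloid cells and bone. *Tnfsf8* encodes CD30 ligand. It was measured at 327 and 346 CPM with DMSO and at 88.9 and 91.8 CPM with MAPK13-IN-1. The inhibitor libraries nearly coincided and lay far below the DMSO libraries. Its mean was 337 ± 13.4 CPM against 90.3 ± 2.02 CPM (SD, n = 2), with a log2 fold change of -1.90 (SE 0.059, 95% interval -2.03 to -1.77, adjusted p = 1.04e-08), or 3.73-fold lower.

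*Tnfsf11* encodes RANKL, the ligand that drives osteoclast formation and lymph node development and that activated T cells also make. The DMSO libraries had 37.7 and 35.8 CPM and the MAPK13-IN-1 libraries 5.12 and 6.31 CPM. Behind these values are 972 and 974 counts with DMSO and 182 and 214 counts with the inhibitor. The groups stood far apart and each was tight, at 36.7 ± 1.33 CPM against 5.72 ± 0.839 CPM (SD, n = 2). Its log2 fold change of -2.68 (SE 0.12, 95% interval -2.95 to -2.42, adjusted p = 7.32e-08), or 6.43-fold lower, was of the size of that of *Lta*, and the intervals of these 2 genes overlapped.

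*Cd40lg* encodes CD40 ligand, the helper signal that B cells need for germinal centres and class switching. Its values were 18.2 and 19.4 CPM with DMSO and 10.8 and 11.7 CPM with the inhibitor. The groups were apart by more than the difference within either, with low counts throughout, 469 and 527 against 383 and 395. The log2 fold change was -0.74 (SE 0.11, 95% interval -0.99 to -0.50, adjusted p = 0.000177), or 1.67-fold lower.

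The last 3 ligands are costimulatory and best known from antigen-presenting cells, although activated T cells can make them as well. *Tnfsf4* encodes OX40 ligand. It was measured at 29.6 and 27.3 CPM with DMSO and at 153 and 131 CPM with MAPK13-IN-1. Both inhibitor libraries lay far above the DMSO libraries, in counts 5446 and 4427 against 765 and 744. The mean was 28.5 ± 1.63 CPM with DMSO and 142 ± 16.1 CPM with the inhibitor (SD, n = 2), a log2 fold change of 2.32 (SE 0.090, 95% interval 2.12 to 2.52, adjusted p = 2.91e-08), or 4.98-fold higher.

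*Tnfsf9* encodes 4-1BB ligand, which costimulates T cells through the receptor encoded by *Tnfrsf9*. With DMSO it gave 6.55 and 7.06 CPM, and with the inhibitor 18.4 and 18.9 CPM. The libraries of each group were close together and the groups well apart. The log2 fold change was 1.45 (SE 0.12, 95% interval 1.19 to 1.71, adjusted p = 2.57e-06), or 2.74-fold higher. The annotated noncoding gene *Gm11110* overlaps *Tnfsf9* on the opposite strand. Without a statement that counting used strand, their reads cannot be told apart. *Gm11110* was counted at 254 and 245 with DMSO and 269 and 249 with the inhibitor. Scaled to library size, its fitted log2 fold change was -0.34, a call that most alternatives did not keep. *Lta* and *Ltb* each hold an annotated microRNA gene on their own strand, *Mir6974* and *Mir6973a*, which the count table does not list.

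*Cd70*, whose product binds CD27 on T and B cells, rested on the fewest counts of the 10, with 73 and 79 in the DMSO libraries and 133 and 168 in the MAPK13-IN-1 libraries. In CPM these were 2.83 and 2.90 against 3.75 and 4.95. Both inhibitor libraries were above both DMSO libraries, but they differed from each other by more than the lower of them differed from the DMSO group. The log2 fold change of 0.60 (SE 0.21, 95% interval 0.13 to 1.07) was called at an adjusted p of 0.0281, and the call did not hold throughout. With DESeq2 the adjusted p was 0.156, and without DMSO replicate 2, DMSO replicate 3 or MAPK13-IN-1 replicate 3 it was 0.0850, 0.0697 and 0.156, in a range over the alternatives of 0.00131 to 0.156. Without MAPK13-IN-1 replicate 3 the log2 fold change was 0.38.

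The replicate 1 pair gives a separate view, with 1 library per group and therefore no test. Ratios are log2((FPKM + 1)/(FPKM + 1)), inhibitor over DMSO, a scale that understates the change of low values. In this pair 0 of the 10 ligands were lower by 2-fold or more, beside 1.91% of the 11510 genes with at least 1 FPKM in a library, and 6 were higher by 2-fold or more (*Tnf*, *Cd70*, *Tnfsf4*, *Tnfsf9*, *Tnfsf11* and *Tnfsf14*), beside 7.12%. The median ratio was 1.35 over the 10 ligands and 0.08 over all such genes. The ligands called higher in replicates 2 and 3 were thus higher in the pair too, while none of those called lower passed 2-fold in that direction.

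*Tnfsf4* went from 7.24 FPKM with DMSO to 93.6 FPKM with MAPK13-IN-1, a log2 ratio of 3.52. *Cd70* went from 1.68 to 28.3 FPKM, a log2 ratio of 3.45. *Tnfsf9* went from 1.68 to 11.5 FPKM, a log2 ratio of 2.22. For these costimulatory ligands both preparations had the higher value with the inhibitor, and the step in *Cd70* was far larger in the pair than the 1.52-fold of the count libraries.

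*Lta* had 238 FPKM with DMSO against 202 FPKM with the inhibitor, a log2 ratio of -0.24. *Ltb* had 160 and 133 FPKM, a log2 ratio of -0.27. *Tnfsf8* had 221 and 149 FPKM, a log2 ratio of -0.56. The direction matched that of replicates 2 and 3 for all 3 of these genes, but the large falls of *Lta* and *Tnfsf8* in the count libraries were small steps in the pair.

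The other ligands called lower in the count libraries went the opposite way in the pair. *Tnfsf11* had 7.58 FPKM with DMSO and 44.4 FPKM with MAPK13-IN-1, a log2 ratio of 2.40 where the count libraries gave -2.68. *Cd40lg* had 15.4 and 22.9 FPKM, a log2 ratio of 0.54 where they gave -0.74. The ligands without a call were also higher with the inhibitor in the pair. *Tnf* had 9.44 and 21.0 FPKM, a log2 ratio of 1.08, and *Tnfsf14* had 4.38 and 15.5 FPKM, a log2 ratio of 1.62. Of the 8 ligands called, 6 had the same direction in the pair and 2 the opposite one, beside 64.9% with the same direction among the 7824 called genes that had at least 1 FPKM in the pair. The difference between the preparations was not tested, and preparation, values of a single library and any difference in treatment cannot be told apart in it.

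**Figure D2:**
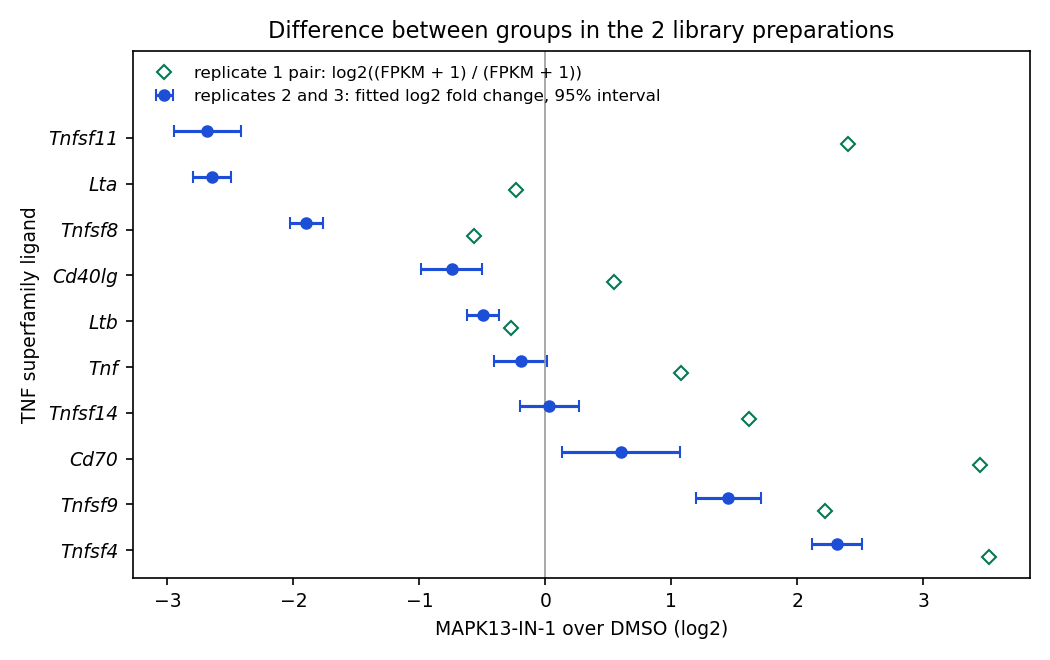
Difference between MAPK13-IN-1 and DMSO for each ligand, in log2 units. Filled points are fitted log2 fold changes of replicates 2 and 3 with 95% intervals (2 against 2 libraries). Open diamonds are log2 ratios of the replicate 1 pair with a pseudocount of 1. *Tnfsf11*, *Cd40lg* and *Tnf*, the last without a call, lie left of 0 in the first and right of 0 in the second.

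Levels can be compared between genes only per length. In FPKM, the order with DMSO in the pair was *Lta* (238), *Tnfsf8* (221) and *Ltb* (160), then far below them *Cd40lg* (15.4), *Tnf* (9.44), *Tnfsf11* (7.58), *Tnfsf4* (7.24) and *Tnfsf14* (4.38), and last *Cd70* and *Tnfsf9*, both at 1.68. These single values have no spread against which neighbours could be separated. In the count libraries, dividing CPM by the annotated exon length gave, with DMSO, 331 ± 7.87 CPM per kb for *Lta*, 248 ± 8.49 for *Ltb* and 88.4 ± 3.53 for *Tnfsf8* (SD, n = 2). The same 3 ligands led in both preparations. On this scale *Tnfsf11* (16.4 ± 0.594 CPM per kb), *Tnf* (16.3 ± 0.224), *Tnfsf14* (15.8 ± 0.0838), *Tnfsf4* (15.5 ± 0.886) and *Cd40lg* (15.0 ± 0.673) followed in this order. Between direct neighbours among these 5, the means lay further apart than the sum of their SDs only for *Tnf* and *Tnfsf14*. *Tnfsf9* (5.27 ± 0.277 CPM per kb) and *Cd70* (3.40 ± 0.0620) came last.

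With MAPK13-IN-1 the order in CPM per kb changed. *Ltb* led at 176 ± 8.10 CPM per kb (SD, n = 2), followed by *Tnfsf4* at 77.1 ± 8.75, *Lta* at 52.9 ± 4.21 and *Tnfsf8* at 23.7 ± 0.531. *Tnfsf4* had thus moved from among the middle genes to the place below *Ltb*. *Tnfsf14* (16.2 ± 2.33 CPM per kb), *Tnfsf9* (14.4 ± 0.268) and *Tnf* (14.3 ± 1.13) did not separate beyond their spread, and *Cd40lg* (8.97 ± 0.489), *Cd70* (5.17 ± 1.02) and *Tnfsf11* (2.56 ± 0.375) were lowest. In the inhibitor library of the pair, in FPKM, *Lta* (202), *Tnfsf8* (149) and *Ltb* (133) still led and *Tnfsf4* (93.6) came after them. The summed level of the 10 ligands was 1329 and 1311 CPM with DMSO and 656 and 674 CPM with the inhibitor in the count libraries, and 667 FPKM with DMSO against 721 FPKM with the inhibitor in the pair. The sum was thus much lower with the inhibitor in the count libraries and slightly higher in the pair.

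Of the 10 genes, 6 lie on mouse chromosome 17, in 2 clusters (GENCODE M21 annotation, build GRCm38). *Ltb* (chr17:35194439-35196320, plus strand), *Tnf* (chr17:35199381-35202007, minus strand) and *Lta* (chr17:35203165-35205351, minus strand) lie within 10.9 kb. Across this short stretch the log2 fold change in replicates 2 and 3 was -0.49, -0.20 and -2.65, so direct neighbours differed widely in size, and *Tnf*, the middle gene, was the one not called. Among protein-coding genes within 25 kb on either side, *Lst1*, a leukocyte membrane protein, was lower (log2 fold change -1.82, adjusted p = 2.33e-05), *Nfkbil1*, an NF-kB inhibitor-like gene, was higher (0.56, adjusted p = 0.000117), and *Aif1*, which encodes the macrophage protein IBA1, had -0.55 (adjusted p = 0.175). The flanking genes therefore had no common direction.

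*Tnfsf9* (chr17:57105325-57107757, plus strand), *Cd70* (chr17:57145997-57149777, minus strand) and *Tnfsf14* (chr17:57189492-57194177, minus strand) span 88.9 kb. Their log2 fold changes in replicates 2 and 3 were 1.45, 0.60 and 0.03, in that order along the chromosome, and their log2 ratios in the pair were 2.22, 3.45 and 1.62. In the pair all 3 genes of this cluster were more than 2-fold higher with the inhibitor, and in the count libraries only *Tnfsf9* was. The flanking genes *C3*, a complement component, and *Tubb4a*, a tubulin, were lower, with log2 fold changes of -1.42 (adjusted p = 3.93e-06) and -0.45 (adjusted p = 0.0157). The call of *Tubb4a* was lost with library totals (0.0607), with DESeq2 (0.114) and without DMSO replicate 2 (0.103), in a range over alternatives of 0.00199 to 0.114. The other ligands lie alone, *Tnfsf4* at chr1:161395409-161418410 (plus strand), *Tnfsf8* at chr4:63831308-63861347 (minus strand), *Tnfsf11* at chr14:78277445-78308043 (minus strand) and *Cd40lg* at chrX:57212143-57224042 (plus strand).

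**Figure D3:**
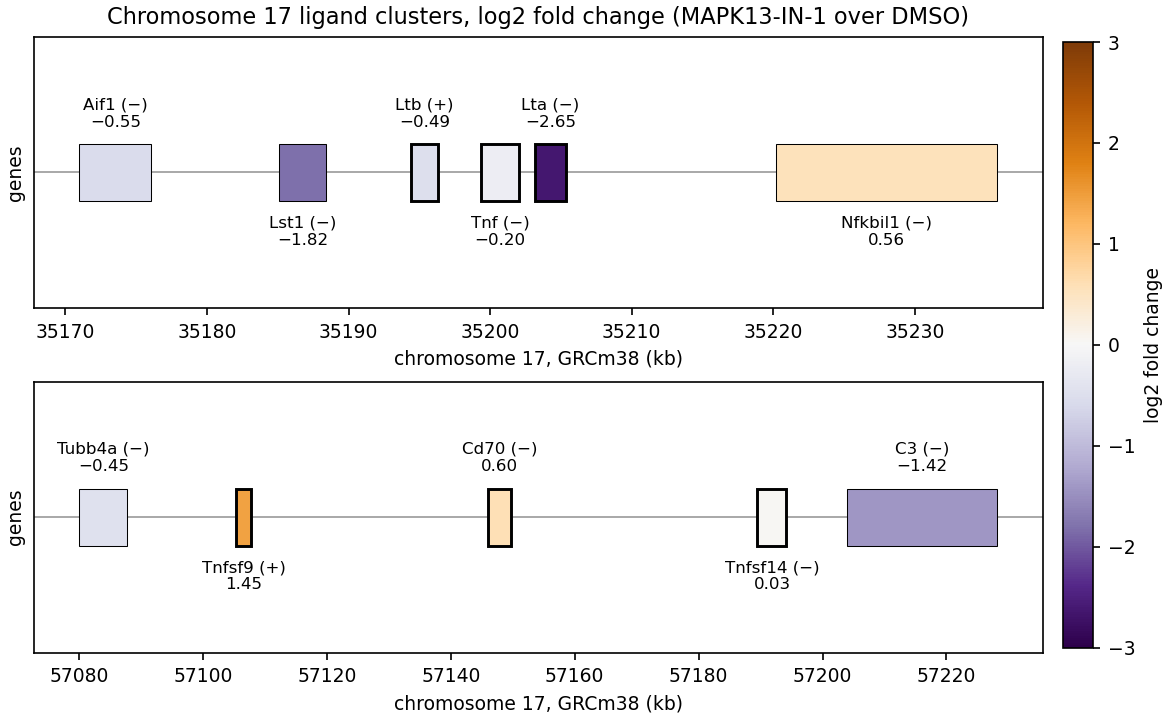
Map of the chromosome 17 ligand clusters with flanking protein-coding genes, to scale in kb of build GRCm38. Boxes with thick outlines are the ligands, colour and the number under each name give the fitted log2 fold change of replicates 2 and 3, and the sign in brackets is the strand; *Lta* has -2.65 while *Tnf* next to it has -0.20.

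Promoter sequences from RefSeq (GRCm38.p6) were at hand for 6 of the 10 ligands, *Tnf*, *Lta*, *Ltb*, *Tnfsf8*, *Tnfsf11* and *Tnfsf14*. The 250 bases before each start were searched on both strands for GGAAA, the core of NFAT sites, for TGANTCA, the AP-1 motif, and for a part of kappa-B sites, GGGA and CC separated by 4 bases. Of 32851 promoters of this length 55.6% hold the first, 6.75% the second and 17.6% the third. GGAAA was found in all 6, once in *Ltb*, *Tnfsf8* and *Tnfsf11*, 2 times in *Lta* and 3 times in *Tnf* and *Tnfsf14*. The AP-1 motif was found only in *Tnfsf14*, 160 bases before the start. The kappa-B part was found once each in *Ltb*, *Tnfsf11* and *Tnfsf14*, and in *Ltb* it overlaps GGAAA, both matches reaching back to 87 bases before the start. A match only describes these letters and a lack of one only says that they are not in this window. The neighbours *Ltb*, *Tnf* and *Lta* are printed because they differ in response, and *Tnfsf8* and *Tnfsf11* because they were lower by more than 2-fold as *Lta* was. Each runs 5′ to 3′ along its gene's strand with matches in capitals, and *Ltb* and *Tnfsf8* are shown only up to the GENCODE gene start. *Ltb* is chr17:35194257-35194438 (plus strand), *Tnf* chr17:35202008-35202257 (minus), *Lta* chr17:35205352-35205601 (minus), *Tnfsf8* chr4:63861348-63861534 (minus) and *Tnfsf11* chr14:78308044-78308293 (minus).
Ltb: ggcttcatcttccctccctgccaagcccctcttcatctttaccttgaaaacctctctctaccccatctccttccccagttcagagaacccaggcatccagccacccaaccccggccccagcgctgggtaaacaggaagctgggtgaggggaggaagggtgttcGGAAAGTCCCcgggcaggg
Tnf: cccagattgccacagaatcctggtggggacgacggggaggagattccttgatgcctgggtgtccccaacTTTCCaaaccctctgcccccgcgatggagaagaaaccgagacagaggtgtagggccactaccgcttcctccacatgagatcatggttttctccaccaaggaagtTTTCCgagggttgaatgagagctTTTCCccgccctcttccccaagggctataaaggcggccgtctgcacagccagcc
Lta: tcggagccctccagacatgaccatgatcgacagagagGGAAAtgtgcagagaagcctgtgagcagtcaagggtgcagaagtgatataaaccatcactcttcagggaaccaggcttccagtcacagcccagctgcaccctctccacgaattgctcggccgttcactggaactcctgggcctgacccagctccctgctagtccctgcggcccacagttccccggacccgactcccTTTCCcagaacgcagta
Tnfsf8: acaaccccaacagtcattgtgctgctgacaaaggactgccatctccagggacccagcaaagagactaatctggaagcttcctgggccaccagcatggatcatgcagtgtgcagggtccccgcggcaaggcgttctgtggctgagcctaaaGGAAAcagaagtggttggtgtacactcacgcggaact
Tnfsf11: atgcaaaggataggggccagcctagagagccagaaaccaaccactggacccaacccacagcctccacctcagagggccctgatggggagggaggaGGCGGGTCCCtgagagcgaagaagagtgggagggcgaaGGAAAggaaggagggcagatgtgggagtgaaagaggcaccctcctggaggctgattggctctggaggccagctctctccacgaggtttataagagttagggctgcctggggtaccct

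Of the other TNF superfamily ligands, 4 of 8 passed the filter on low counts, and 2 of these were higher with the inhibitor and 0 lower, beside 31.5% and 32.3% of all genes. With DESeq2, and without MAPK13-IN-1 replicate 3, only 1 was higher. *Tnfsf13b*, which encodes the B cell survival factor BAFF, had 0.581 and 0.588 CPM with DMSO and 4.34 and 4.07 CPM with the inhibitor (log2 fold change 2.84, SE 0.26, adjusted p = 5.35e-06). *Tnfsf15*, the ligand TL1A, had 1.24 and 1.29 CPM against 2.00 and 2.95 CPM (log2 fold change 0.97, SE 0.28, adjusted p = 0.0124), a call that was lost with DESeq2 (0.0951) and without MAPK13-IN-1 replicate 3 (0.0850), the range over alternatives being 0.000248 to 0.0951. *Fasl*, the death ligand, had 14 and 18 counts with DMSO and 13 and 11 with the inhibitor, or 0.543 and 0.661 CPM against 0.366 and 0.324 CPM (adjusted p = 0.137), and *Tnfsf10*, the ligand TRAIL, gave 5.31 and 4.52 CPM against 6.05 and 5.37 CPM (adjusted p = 0.279). The transcripts of BAFF and TL1A were thus higher with the inhibitor in the count libraries, and the death ligands gave no call. In the pair only the death ligands had at least 1 FPKM in a library. *Fasl* went from 1.18 to 5.92 FPKM (log2 ratio 1.67) and *Tnfsf10* from 1.97 to 5.36 FPKM (1.10). *Tnfsf13b* had 0.484 and 0.578 FPKM and *Tnfsf15* 0.0630 and 0.261 FPKM. At such low values the ratio depends on the pseudocount, so the size of these steps was not compared with that of the death ligands.

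The receptors of the 10 ligands number 11, of which 10 were tested, 5 being lower with the inhibitor, 2 higher and 3 not called, beside 32.3% lower and 31.5% higher of all genes. Without DMSO replicate 3 only 3 were lower, and with library totals 4 were higher. In the pair 9 of them had at least 1 FPKM in a library, 1 with a lower and 8 with a higher value with the inhibitor (median log2 ratio 0.40), beside 5010 and 6500 of all genes. *Tnfrsf4*, which encodes OX40, the receptor of the product of *Tnfsf4*, had 277 and 271 CPM with DMSO and 72.1 and 89.9 CPM with the inhibitor (log2 fold change -1.76, SE 0.090, adjusted p = 1.6e-07). Ligand and receptor thus moved in opposite directions in the count libraries, *Tnfsf4* up by 4.98-fold and *Tnfrsf4* down by 3.38-fold. In the pair *Tnfsf4* was higher with the inhibitor as given above, while *Tnfrsf4* had 321 FPKM with DMSO against 266 FPKM with the inhibitor. *Tnfrsf9*, which encodes 4-1BB, showed the same opposition to its ligand, with 520 and 489 CPM against 165 and 236 CPM (log2 fold change -1.33, SE 0.13, adjusted p = 7.49e-06), while *Tnfsf9* was higher. In the pair, however, *Tnfrsf9* was higher with the inhibitor, at 189 FPKM against 106 FPKM.

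*Tnfrsf8*, which encodes CD30, was lower together with its ligand *Tnfsf8*, at 265 and 297 CPM with DMSO against 109 and 137 CPM with the inhibitor (log2 fold change -1.19, SE 0.098, adjusted p = 2.77e-06). In the pair it had 52.0 and 59.1 FPKM. *Cd40*, the receptor of CD40 ligand on B cells and other antigen-presenting cells, was higher at 47.2 and 46.8 CPM with the inhibitor against 37.4 and 36.4 CPM with DMSO (log2 fold change 0.35, SE 0.075, adjusted p = 0.00221), the opposite of *Cd40lg*. In the pair *Cd40* went from 6.26 to 25.3 FPKM. *Cd27*, the receptor of CD70, had 26.8 and 29.3 CPM against 20.9 and 22.5 CPM (log2 fold change -0.37, SE 0.096, adjusted p = 0.00612), a call lost without DMSO replicate 3 (0.0764, range over alternatives 4.19e-05 to 0.0764), and the pair had 22.7 and 27.1 FPKM.

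The TNF receptors themselves, which also bind lymphotoxin alpha, went in opposite directions. *Tnfrsf1b*, which encodes the receptor TNFR2 of activated T cells, had 111 and 105 CPM with DMSO and 258 and 250.1 CPM with the inhibitor (log2 fold change 1.23, SE 0.058, adjusted p = 9.69e-08), and 11.2 and 18.4 FPKM in the pair. *Tnfrsf1a*, which encodes the widely expressed TNFR1, had 16.3 and 19.9 CPM against 11.3 and 13.6 CPM (log2 fold change -0.54, SE 0.14, adjusted p = 0.00530), and 7.30 and 9.01 FPKM in the pair. That call was lost without DMSO replicate 3 (adjusted p = 0.0535, range over alternatives 1.42e-07 to 0.0535).

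The receptors of LIGHT, lymphotoxin beta and RANKL gave no call. *Tnfrsf14* had 96.2 and 100.1 CPM against 106 and 104 CPM (log2 fold change 0.10, adjusted p = 0.174), and it was called higher only when scaled by library totals (0.00802) or by upper quartiles (0.0249), in a range over alternatives of 0.00802 to 0.681. *Ltbr* was scarce, at 0.930 and 0.625 CPM against 0.507 and 0.560 CPM (adjusted p = 0.265). *Tnfrsf11a*, which encodes RANK, had 0 and 11 counts with DMSO and 27 and 21 counts with the inhibitor (adjusted p = 0.0675, or 0.0102 with the replicate number as a block), and the adjusted p ran over the alternatives from 0.000144 without DMSO replicate 3, which leaves the library with 0 counts, to 0.343 without DMSO replicate 2. *Tnfrsf11b*, the decoy receptor of RANKL, was not tested. *Tnfrsf11a* needed the inhibitor libraries to pass the filter on low counts, which favoured a call in the higher direction. Its call also depended on the setting, so no direction is read from it, and *Ltbr* had no call.

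Downstream of the receptors, 10 of the 22 adaptors and proximal kinases were lower with the inhibitor and 8 higher, none by 2-fold, beside 32.3% and 31.5% of all genes tested. *Map3k14*, which encodes NIK, had 71.5 and 70.8 CPM with DMSO against 35.5 and 37.1 CPM with the inhibitor (log2 fold change -0.97, SE 0.071, adjusted p = 1.33e-06). *Traf5*, an adaptor of costimulatory receptors, was higher, at 27.8 and 25.6 CPM against 14.1 and 13.4 CPM (log2 fold change 0.96, SE 0.10, adjusted p = 1.67e-05). The deubiquitinase gene *Cyld* (log2 fold change 0.55, SE 0.058, adjusted p = 1.73e-05) and *Tab2*, a partner of the kinase TAK1 (0.52, SE 0.059, adjusted p = 2.49e-05), were also higher. The list had a median log2 fold change of -0.15 in the count libraries. In the pair its balance was the other way, with 4 genes below and 18 above a ratio of 0 and a median log2 ratio of 0.29, beside 5010 and 6500 of all genes with at least 1 FPKM. The gene past 2-fold there was *Traf1*, another adaptor, at 56.0 FPKM with DMSO against 153 FPKM with the inhibitor (log2 ratio 1.44), where the count libraries gave a log2 fold change of -0.52.

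Of 13 NF-kB subunits and inhibitors, 5 were lower and 4 higher (median log2 fold change -0.05), near the 32.3% and 31.5% of all genes, while in the pair 2 had a lower and 11 a higher value with the inhibitor (median log2 ratio 0.84), beside 5010 and 6500 of all genes. Among those lower were subunits of the NIK-dependent route, *Nfkb2* from 729 and 747 CPM to 297 and 348 CPM (log2 fold change -1.19, SE 0.070, adjusted p = 3.29e-07) and *Relb* from 80.8 and 87.7 CPM to 28.6 and 32.6 CPM (-1.46, SE 0.085, adjusted p = 3.06e-07). *Nfkb1*, a subunit gene of the canonical route, was lower as well (-0.78, SE 0.047, adjusted p = 3.76e-07). The remaining subunit genes of the list were called in opposite directions in the count libraries. *Tnfaip3*, which encodes the inhibitor A20, was higher at 524 and 498 CPM against 251 and 260.1 CPM (1.00, SE 0.054, adjusted p = 1.95e-07). In the pair, by contrast, *Nfkb2* had 153 FPKM with DMSO against 274 FPKM with the inhibitor, *Relb* 53.3 and 51.6 FPKM, *Nfkb1* 157 and 129 FPKM, and *Tnfaip3* 25.1 and 83.8 FPKM. Of these 4 genes *Tnfaip3* was thus higher and *Relb* and *Nfkb1* lower with the inhibitor in both preparations.

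Of 10 genes that act on the ligands' proteins or transcripts, 8 were higher and 1 lower, beside 31.5% and 32.3% of all genes, and the median log2 fold change was 0.47. In the pair 8 had a higher and 2 a lower value with the inhibitor (median log2 ratio 0.44), beside 6500 and 5010 of all genes. *Adam17*, the protease that sheds TNF and other ligands from the membrane, had 83.2 and 77.2 CPM with DMSO and 131 and 125 CPM with the inhibitor (log2 fold change 0.67, SE 0.066, adjusted p = 9.4e-06). *Rhbdf1*, a partner of that protease, was higher by 1.71 on the log2 scale (SE 0.12, adjusted p = 1.04e-06). *Zfp36*, which encodes tristetraprolin, a protein that speeds decay of *Tnf* mRNA, had 28.5 and 29.3 CPM against 59.9 and 58.8 CPM (log2 fold change 1.04, SE 0.075, adjusted p = 1.25e-06), and *Rc3h1*, which encodes the mRNA-binding protein roquin, was higher too (0.96, SE 0.067, adjusted p = 9.16e-07). *Tnf* itself was not called in these libraries.

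Among 20 transcription factor genes listed for T cell receptor signaling, 11 were lower and 5 higher, beside 32.3% and 31.5% of all genes. Their median log2 fold change was -0.29, and the list was not limited to genes that this receptor induces. In the pair 4 had a lower and 16 a higher value with the inhibitor (median log2 ratio 0.46), beside 5010 and 6500 of all genes. *Egr1*, an immediate early gene, went from 341 and 332 CPM with DMSO to 49.8 and 47.1 CPM with the inhibitor (log2 fold change -2.80, SE 0.061, adjusted p = 1.61e-09), a fall of the size of those of *Lta* and *Tnfsf11*. *Egr3* of the same family (-2.31, SE 0.11, adjusted p = 1.08e-07) and *Jund*, an AP-1 subunit (-1.51, SE 0.077, adjusted p = 1.49e-07), were also lower, while *Jun*, another AP-1 subunit, was higher at 291 and 278 CPM against 144 and 150 CPM (0.95, SE 0.056, adjusted p = 3.46e-07). In the pair *Egr1* had 56.1 and 37.3 FPKM and *Jun* 8.52 and 44.3 FPKM, while *Egr3*, at 9.63 and 12.2 FPKM, and *Jund*, at 89.9 and 99.3 FPKM, were not lower with the inhibitor. Whether any of these genes acts on the ligands was not tested.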

How the data were processed

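The authors deposited whole-number counts per gene for replicates 2 and 3 of each group. The values that the authors deposited for replicate 1, a single number for each gene, are taken here as FPKM; that unit was inferred, since the values are not whole, sum to 405150 and 390729, and fall relative to CPM with exon length (slope -0.72 on log2 scales, across 10157 genes, which are not independent replicates). The submitters' processing notes name fastp 0.21.0, HISAT2 2.1.0, StringTie 2.1.5 and DESeq2 1.30.1 for the count libraries and HISAT2 and FastQC for the pair, with build mm10 (GRCm38); how counts were derived and the annotation are not given in the sources used here.

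Counts were fitted in R 4.3.3 with edgeR 4.0.16 (quasi-likelihood test, TMM, filterByExpr with a minimum count of 10 and total of 15, 16269 genes, Benjamini-Hochberg adjustment over all of them), without covariates, and the fit was tested on simulated data. TMM factors were 0.960 and 0.955 (DMSO) and 1.05 and 1.04 (MAPK13-IN-1). Counting error is small at 26874805 to 33854760 counts per library, except for genes with few counts. Replicates differed by more than sampling noise (mean chi-square per gene 3.08 with DMSO and 9.60 with the inhibitor). The pair was not tested; ratios used a pseudocount of 1 and genes with at least 1 FPKM in a library. Alternatives were RLE, upper-quartile and library-total scaling, no filter, at least 10 counts in every library, a replicate block, DESeq2 1.42.0, leaving out each library, and, for the pair, a pseudocount of 0.1 and no filter. CPM per kb, added after seeing the data, used union exon lengths of GENCODE M21.

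The members and lists were chosen with earlier results of these data known. Named genes are the 10 ligands, every tested gene of the other ligands and of the receptors, the 4 genes with the smallest p of each further pathway list, and of each marker list the gene with the highest mean CPM and those at 0. *Cd4*, *Cd3e*, *Gm11110*, *Mir6974*, *Mir6973a*, *Tnfrsf11b*, *Traf1*, *Batf3* and the flanking genes of the clusters are outside this rule and were chosen after their values were seen. Proteins were not used here.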

Additional observations from a re-analysis of the deposited data

Results flagged for a closer look

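Some genes named here were called in replicates 2 and 3 but had a ratio of the opposite sign in the replicate 1 pair (log2 of FPKM + 1, inhibitor over DMSO). Of 44 named genes that were called and had at least 1 FPKM in the pair, 18 did so, while of all 7824 such genes 5077 had the same direction. Several of the named genes were chosen after their values were seen. The difference between the preparations was not tested for any of them, and the pair has 1 library per group. Among the ligands these were *Tnfsf11*, with a log2 fold change of -2.68 in the count libraries and a log2 ratio of 2.40 in the pair, and *Cd40lg*, with -0.74 and 0.54. Among the receptors, *Tnfrsf9* had -1.33 and 0.83, *Tnfrsf1a* -0.54 and 0.27, *Cd27* -0.37 and 0.25, and *Tnfrsf8* -1.19 and 0.18. Of the signaling and transcription factor genes, *Nfkb2* had -1.19 and 0.84, *Egr3* -2.31 and 0.31, *Jund* -1.51 and 0.14, and *Traf1* -0.52 and 1.44. Of the cell type markers, *Pax5* had 0.62 and -0.66, *Cd8b1* -0.60 and 1.02 (call lost with DESeq2, adjusted p = 0.0535), and *Batf3* -3.19 and 0.42. Of the genes beside or overlapping the ligand clusters, *C3* had -1.42 and 0.55, *Tubb4a* -0.45 and 0.56, *Gm11110* -0.34 and 0.90 (adjusted p = 0.0477, a call kept in only 1 of 11 alternatives, range 0.0394 to 0.259), *Lst1* -1.82 and 0.042, and *Nfkbil1* 0.56 and -0.021.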

How the results depend on the processing

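Of 863 recomputed values, 818 kept their direction and side of the threshold, or, for counts of genes, stayed within 1.5 times. Over the alternatives 5 to 6 ligands were lower and 2 to 3 higher, and with a fold of at least 2, added after seeing the data, always 3 lower and 2 higher. Only *Cd70*, *Tnf* and *Tnfsf14* changed among the ligands. *Cd70* lost its call with DESeq2 (log2 fold change 0.61) and with 3 of the 4 libraries left out, but not without MAPK13-IN-1 replicate 2, the high end of the range (0.38 to 0.79); left-out libraries gave -0.29 to -0.12 for *Tnf*, called at the low end, and -0.13 to 0.17 for *Tnfsf14*, whose sign turned at -0.13 without MAPK13-IN-1 replicate 3. With a library left out, the lone sample of its group is assumed to vary like the other group. The number of all genes higher by at least 2-fold went from 2113 to 1264 with at least 10 counts in every library, which tests fewer genes. With a pseudocount of 0.1 the pair had 352 genes lower and 1277 higher by 2-fold, in place of 220 and 819; the same 0 and 6 ligands were counted. The cause of the other changes was not tested. Scaling by library totals moved every log2 fold change up by 0.12 (lower 4304, higher 6170, in place of 5252 and 5122). Replicate numbers did not pair the samples (correlation of deviations -0.01), and the replicate block gave 5384 genes lower and 5261 higher, with 5 ligands lower and 3 higher; of the named genes only *Tnfrsf11a* and *Gm11110* (adjusted p = 0.0502) changed their call. *Gm11110* kept its call only without MAPK13-IN-1 replicate 2. *Cd4*, not called in any setting, turned sign from -0.00064 to 0.013 (RLE), 0.080 (upper quartile), 0.12 (library totals), 0.044 (at least 10 counts), 0.0079 (DESeq2) and 0.041 (without MAPK13-IN-1 replicate 2), and was -0.050 without MAPK13-IN-1 replicate 3. The spread is estimated from 2 libraries per group, and whether depth limits any call was not tested.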
